A study of Mus musculus with 2 samples.

Results

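The collagen chains are the genes that encode the subunits of the collagens, the triple-helical proteins that make up scar tissue and basement membranes. The members were all mouse genes whose official symbol is Col, a number, the letter a and a number, read from probes whose accession is a RefSeq transcript of such a gene. There are 44 such genes, and 42 of them had at least 1 of 61 matched probes among the 20284 genes on the array. Of these 42, 33 were well above background on both arrays, 2 on 1 array and 5 on neither, and 2 lacked a usable pair of spots because of outlier flags.

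The samples are total liver RNA of male C57BL/6 mice with liver fibrosis. The TSG-6 group had received recombinant TSG-6, a secreted protein that binds hyaluronan, by intravenous injection, and the PBS group the vehicle. RNA was taken 2 weeks later, and equal amounts from 3 mice per group were pooled onto 1 one-colour Agilent array per group, 2 arrays in all. How fibrosis was induced and the dose are not given in the sources used here, and no liver without fibrosis was analysed here. With 1 pool per group replicates are lacking, so the values carry no test and no p-value: each difference is that between these 2 pools, and array and group cannot be told apart. The number of arrays limits the precision.

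A collagen molecule is a trimer of identical or related chains wound around each other along repeats of glycine and 2 other residues. Fibrillar collagens assemble into the cross-banded fibrils of tendon, skin and scar. Type IV collagen forms the sheet of basement membranes, and types VIII and X form hexagonal lattices. FACITs (fibril-associated collagens with interrupted triple helices) coat the surface of fibrils, type VI forms beaded filaments, and several other chains are anchored in cell membranes. In the injured liver, activated hepatic stellate cells and portal fibroblasts are the main source of fibrillar collagen. In bulk liver RNA, fewer cells of a type and less RNA per cell cannot be told apart.

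The level of a chain is its signal divided by the 75th percentile of its own array, in log2, and its difference is the level in the TSG-6 pool minus that in the PBS pool, written with the error that the scanner software gives for the spots (the spot error). This error covers the reading of the spots and leaves out the spread between mice. Over 327 probes printed in several copies, the difference varied between copies with a pooled SD of 0.13. Both arrays lay on 1 slide and were read in 1 scan. Spots well above background made up 73.1% (PBS) and 73.9% (TSG-6) of each array, no spot was saturated, and 3.40% and 6.44% of spots carried an outlier flag. Hepatocyte genes were bright in both pools: Alb (albumin) read 62503 and 63130 before scaling, and the 4 measured markers of 5 had differences of 0.30 to 0.37. With the spike-in controls set equal on both arrays, these 4 were below 0 (-0.12 to -0.05), so their direction depended on the scaling.

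The collagen chains did not move as a block. Of the 33 measured chains, 5 were lower in the TSG-6 pool by at least 2-fold (Col15a1, Col8a1, Col6a5, Col5a1 and Col5a2), against 4.29% of the 15151 genes measured on both arrays. One chain, Col4a3, was at least 2-fold higher, against 2.94% of measured genes, and 27 lay within 2-fold. Together 6 chains were past 2-fold, against 7.23% of genes. At 1.5-fold, 8 chains were lower and 5 higher, against 10.3% and 10.5% of genes; those added below were Col16a1, Col4a1 and Col4a6, and above Col4a4, Col24a1, Col5a3 and Col10a1. Below 0 were 17 of 33 chains, against 42.5% of all genes. The median difference was -0.06 over the chains and 0.08 over all measured genes. More than 2 spot errors below 0 were 11 chains, and 6 were more than 2 spot errors above it. The share of all genes past 2 spot errors was not computed, so these counts cannot be set against the array.

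The split of the chains went with signal. Of the 22 chains at or above the array's median signal on both arrays, 15 were below 0 and 4 were at least 2-fold lower, against 43.4% and 3.23% of the 11732 genes in the same range. None of these 22 was 2-fold higher, against 2.23%. Their median was -0.33, where that of all such genes was 0.06. Of the 11 dimmer chains, 2 were below 0, against 39.6% of the 3419 genes in that range, and their median was 0.25 against 0.15. They hold both the lowest chain, Col15a1, and the highest, Col4a3, that is 1 lower and 1 higher by 2-fold, against 7.93% and 5.38% of those genes. The median of the bright chains thus lay below that of all genes at or above the array's median signal. The median of the dim chains did not lie below that of the genes in their range. Within each range signal was not matched further.

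**Figure D1:**
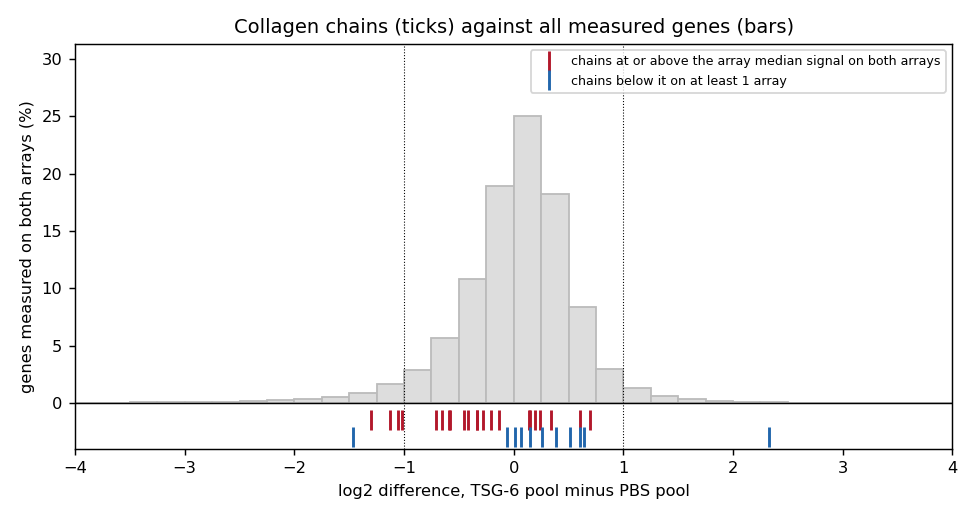
Share of the 15151 genes measured on both arrays (vertical axis, percent) by log2 difference between the TSG-6 and PBS pools (horizontal axis, bins of 0.25), with the 33 measured collagen chains as ticks below; dotted lines mark 2-fold. The 22 brighter chains (red) gather to the left with a median of -0.33 and the 11 dimmer ones (blue) to the right with a median of 0.25.

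The number of chains past 2-fold depended on how the arrays were scaled. Under normexp background correction 1 chain was lower and 1 higher (Col8a1 and Col4a3), against 2.65% and 1.91% of genes in that setting. When flagged spots were kept out of the percentile, 2 were lower and 1 higher, against 2.48% and 6.72% of genes. With the spike-in controls set equal on both arrays 9 were lower and 1 higher, against 10.5% and 1.14% of genes. The median over all measured genes moved too, from 0.08 to 0.37 with the percentile of unflagged spots and to -0.35 with spike-in scaling. The median of the chains minus that of all genes was -0.14, a gap that rescaling by a constant cannot move. It was -0.013 with no filter on dim probes, -0.40 with the stricter filter and -0.21 with flagged spots kept. Over the 10 alternatives that can change a chain's value, 13 chains were below 0 in each, 6 were above 0 in each and 14 changed sign. The 10 are not independent readings. Keeping flagged spots changed Col4a1 alone among the measured chains, and the mean over probes cannot change a chain with 1 measured probe. The deposited value table gave nearly the same values, with a shift of the all-gene median of -0.0052. The share of all genes below 0 was 21.5% with the percentile of unflagged spots and 81.4% with spike-in scaling. The share of genes that kept their sign was not computed, so these chain counts cannot be set against the array.

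**Figure D2:**
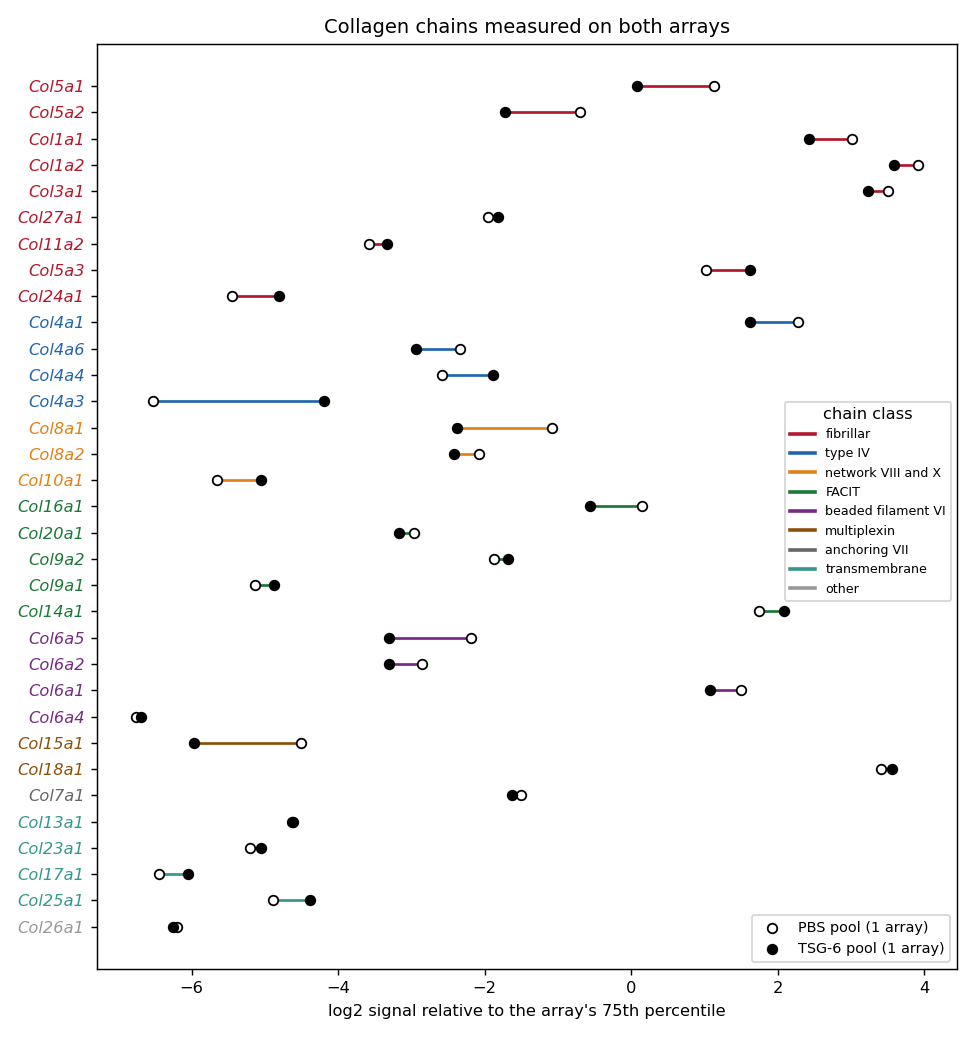
Level of each of the 33 measured chains on the PBS array (open circles) and the TSG-6 array (filled circles), as log2 signal relative to the array's 75th percentile, coloured by chain class; levels of different chains come from different probes and are not compared. Col4a3 has the longest line to the right (from -6.52 to -4.20) and Col15a1 the longest to the left (from -4.50 to -5.97).

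Among the fibrillar chains, the 2 chains that build the common form of type V collagen were lower by 2-fold. Type V sits inside type I fibrils and limits their diameter. Col5a1 had a level of 1.13 in the PBS pool and 0.07 in the TSG-6 pool, a difference of -1.05 ± 0.20 or 2.07-fold lower. Col5a2, its partner in the trimer, had levels of -0.70 and -1.72, 2.03-fold lower. Their differences were 0.03 apart, with a spot error of 0.29 on that gap. Both fell short of 2-fold under normexp (-0.96 and -0.91) and with the percentile of unflagged spots (-0.76 and -0.73).

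Col5a3, which encodes an alternative chain of type V collagen, went the other way. Its level was 1.02 in the PBS pool and 1.62 in the TSG-6 pool, 1.52-fold higher. It lay 1.66 ± 0.29 above Col5a1 in its difference, and 1.59 under normexp. Col5a3 stayed above 0 under all 10 alternatives (0.18 to 0.89), some of which repeat the value given here. Col5a3 thus stood apart from both other type V chains by more than the spot error.

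The major scar collagens were lower by less than 2-fold. Col1a1 encodes the chain that is present in 2 copies in type I collagen. Its level was 3.02 in the PBS pool and 2.43 in the TSG-6 pool, a difference of -0.58 ± 0.20. Col1a2, the other type I chain, had levels of 3.92 and 3.59, a difference of -0.33 ± 0.20. Col3a1, the chain of type III collagen, had levels of 3.51 and 3.23 and a difference of -0.28 ± 0.20. The last pair were within 2 spot errors of 0 when scaled to the 75th percentile. With the percentile of unflagged spots Col1a2 gave -0.04 and Col3a1 reached 0.01. Other settings took both further below 0: -0.63 and -0.51 under quantile normalization, -0.57 and -0.49 under loess, and -0.75 and -0.70 with spike-in scaling. Col1a1 was past 2-fold in 1 alternative, at -1.01 with spike-in scaling. The gap between Col1a1 and Col1a2, -0.25, was smaller than its spot error of 0.29.

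The other fibrillar chains were not lower. Col24a1, which is known from developing bone, was dim at levels of -5.45 and -4.81, a difference of 0.65 ± 0.27. Col11a2, a cartilage chain, differed by 0.24 ± 0.21, and Col27a1, which is also known from cartilage, by 0.14 ± 0.20; both changed sign with spike-in scaling (-0.18 and -0.28). Col2a1, the cartilage fibril chain, and Col11a1 were not well above background on either array. Of the 9 measured fibrillar chains 5 were below 0, those of types I and III and the main type V pair, and 4 were above 0. The class median was -0.28.

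**Figure D3:**
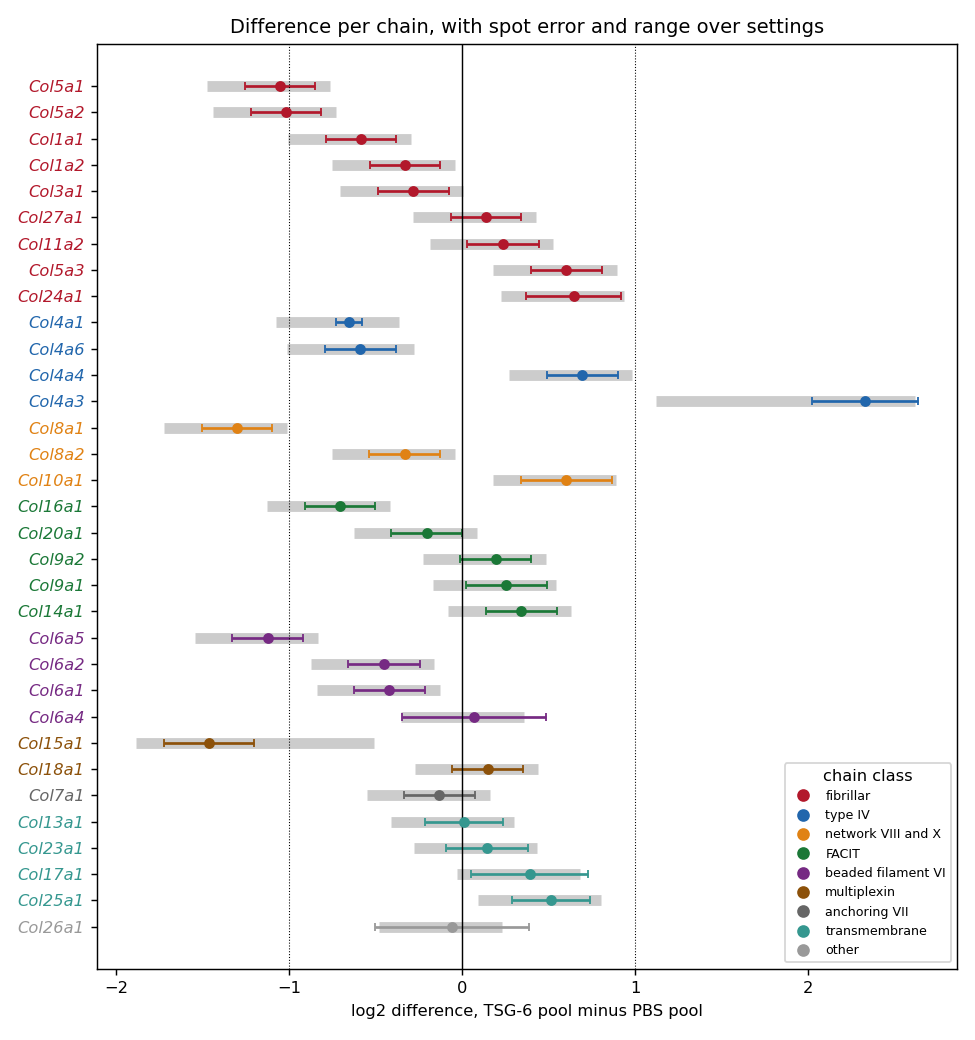
Difference between the TSG-6 and PBS pools for each measured chain (log2, horizontal axis) with its spot error (bars) and the range over 10 alternative settings (grey); dotted lines mark 2-fold. Col8a1 and Col4a3 keep a 2-fold difference over the whole grey range (-1.73 to -1.01 and 1.12 to 2.62).

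The sequences just upstream of the annotated starts are shown for 6 chains, to set the type V pair that moved apart (Col5a1 and Col5a3) and 2 more chains past 2-fold (Col6a5 and Col8a1) beside 2 chains of the major scar collagens (Col1a2 and Col3a1). They are the 250 bases before the start, from RefSeq on GRCm38.p6, written 5′ to 3′ on the strand of the gene, with capitals for 4 motifs searched on both strands: CCAAT, the GC box GGGCGG, the TATA box letters TATAAA and the AP-1 letters TGANTCA.
Col1a2, chr6:4505368-4505617, + strand: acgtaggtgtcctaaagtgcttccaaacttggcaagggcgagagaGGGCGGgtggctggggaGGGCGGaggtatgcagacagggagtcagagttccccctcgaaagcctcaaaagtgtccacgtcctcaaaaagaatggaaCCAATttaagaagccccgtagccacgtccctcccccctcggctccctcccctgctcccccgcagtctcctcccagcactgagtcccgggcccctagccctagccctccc
Col3a1, chr1:45311288-45311537, + strand: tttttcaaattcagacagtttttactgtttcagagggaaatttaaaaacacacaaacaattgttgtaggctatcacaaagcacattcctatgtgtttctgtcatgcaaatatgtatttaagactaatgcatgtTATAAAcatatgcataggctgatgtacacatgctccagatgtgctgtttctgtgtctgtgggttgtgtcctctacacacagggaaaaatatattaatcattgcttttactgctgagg
Col5a1, chr2:27886175-27886424, + strand: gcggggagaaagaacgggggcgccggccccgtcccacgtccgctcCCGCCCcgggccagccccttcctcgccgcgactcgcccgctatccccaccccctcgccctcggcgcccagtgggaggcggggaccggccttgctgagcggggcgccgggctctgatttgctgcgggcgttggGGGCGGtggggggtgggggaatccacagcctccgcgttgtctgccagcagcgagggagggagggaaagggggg
Col5a3, chr9:20815068-20815317, - strand: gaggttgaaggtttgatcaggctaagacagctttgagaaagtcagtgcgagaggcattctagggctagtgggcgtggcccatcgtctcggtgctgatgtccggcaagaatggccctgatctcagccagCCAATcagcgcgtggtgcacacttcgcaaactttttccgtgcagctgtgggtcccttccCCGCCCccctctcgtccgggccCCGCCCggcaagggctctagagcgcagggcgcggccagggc
Col6a5, chr9:105960644-105960893, - strand: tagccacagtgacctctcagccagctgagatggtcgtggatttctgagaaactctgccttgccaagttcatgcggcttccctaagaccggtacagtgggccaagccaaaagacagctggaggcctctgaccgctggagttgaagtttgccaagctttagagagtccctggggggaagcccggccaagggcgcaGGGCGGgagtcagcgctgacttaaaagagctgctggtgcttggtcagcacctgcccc
Col8a1, chr16:57754738-57754987, - strand: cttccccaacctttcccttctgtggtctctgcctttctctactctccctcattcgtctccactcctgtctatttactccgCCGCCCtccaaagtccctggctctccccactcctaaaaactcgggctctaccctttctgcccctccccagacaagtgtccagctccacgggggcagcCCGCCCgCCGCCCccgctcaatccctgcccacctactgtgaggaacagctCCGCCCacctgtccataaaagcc

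Col5a1 and Col5a3, which differed in opposite directions, both hold 2 GC boxes, and Col5a3 also has a CCAAT. Col8a1 holds 4 GC boxes and Col6a5 has 1. Col1a2 has a CCAAT and 2 GC boxes, while Col3a1 has TATAAA alone among these motifs. A window was found for 35 of the 44 chains (38 windows, since some chains have 2 starts). GGGCGG occurred in 57.9% of the collagen windows, against 32.7% of the 32851 windows of all genes and 42.6% of those of protein-coding genes. CCAAT occurred in 34.2% against 33.8%, TATAAA in 13.2% against 12.4% and TGANTCA in 2.63% against 6.75% of all windows. No 2 different motifs overlapped in a collagen window. Of 14 measured chains below 0 that had a window, 9 held a GC box, 4 CCAAT, 1 TATAAA and 1 TGANTCA. Of 14 above 0, 8 held a GC box, 6 CCAAT, 4 TATAAA and 0 TGANTCA. These splits were not tested. A match to these letters is a description of the sequence and not a binding site.

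Among the type IV chains, the basement membrane collagens, Col4a1 of the common pair was lower, as was Col4a2 when read from flagged spots. A rarer pair was higher. Col4a1, found with Col4a2 in nearly all basement membranes, was printed as 10 spots per array. Its 10 usable spots on the PBS array had signals of 14157 to 16361 before scaling, and its 6 usable spots on the TSG-6 array 7071 to 8307, so the spots of the arrays did not overlap. After scaling, the level was 2.27 in the PBS pool and 1.62 in the TSG-6 pool, 1.58-fold lower. Over the 6 spots usable on both arrays the difference was -0.66 ± 0.11 (SD over spots), which makes it the chain with the most repeated reading. Col4a2 had 1 spot per array, flagged on both; with flags ignored it was 1.73-fold lower, a difference of -0.79.

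Col4a3 and Col4a4 encode 2 of the 3 chains of the basement membrane of the kidney glomerulus and lung alveolus. Col4a3 was dim, with levels of -6.52 in the PBS pool and -4.20 in the TSG-6 pool, a difference of 2.33 ± 0.31 or 5.03-fold higher. It was the highest of the chains, and 99.7% of measured genes had a lower difference. It rests on 1 probe, and its difference was 1.12 under normexp. Col4a4 had levels of -2.58 and -1.89, a difference of 0.69 ± 0.20, and its second measured probe gave 0.37. Col4a5, which completes that trimer, had its TSG-6 spot flagged; with flags ignored it differed by -0.29. So the chains of this trimer that had usable spots were higher, and the one read from a flagged spot was not.

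Col4a6, which pairs with Col4a5 in some basement membranes, had levels of -2.34 and -2.93, a difference of -0.59 ± 0.21. Its dimmer probe gave 0.03. The median over the 4 measured type IV chains was 0.05. With flagged spots kept it was -0.44 over 6 chains.

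Of the lattice-forming chains, Col8a1 was 2.47-fold lower. Type VIII collagen is made by endothelial and mesenchymal cells and is known from vessel walls. The level of Col8a1 was -1.08 in the PBS pool and -2.38 in the TSG-6 pool, a difference of -1.30 ± 0.20, and 2.41% of measured genes had a lower one. It was past 2-fold under all 10 alternatives, some of which repeat the value given here, the mildest being -1.01. Col8a2, the other type VIII chain, had levels of -2.08 and -2.42, a difference of -0.33 ± 0.20. Col8a1 lay 0.97 below Col8a2 in its difference (-0.97, spot error 0.29), so the 2 chains differed unequally. Col10a1, known from growth plate cartilage, was dim at -5.66 and -5.06, a difference of 0.60 ± 0.26 that was 0.22 under normexp.

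The FACITs were mixed and none passed 2-fold. Col14a1, a fibril-surface chain found in collagen-rich tissue, had levels of 1.75 and 2.09, a difference of 0.34 ± 0.20, and its second probe gave 0.51. It changed sign with spike-in scaling, at -0.08. Col16a1, which associates with fibrils and microfibrils, was lower, with levels of 0.15 and -0.56 and a difference of -0.71 ± 0.20. Its other probes gave -0.91 and 0.19, a gap that spot error does not cover. Col9a1 and Col9a2, cartilage chains, differed by 0.25 ± 0.23 and 0.19 ± 0.20, and Col20a1 by -0.21 ± 0.21; each was within 2 spot errors of 0. Over the 5 measured FACITs the median was 0.19. Col22a1 was well above background in the TSG-6 pool alone, at least 1.18-fold higher, while Col9a3 and Col19a1 were not well above background on either array and Col12a1 had no matched probe.

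**Figure D4:**
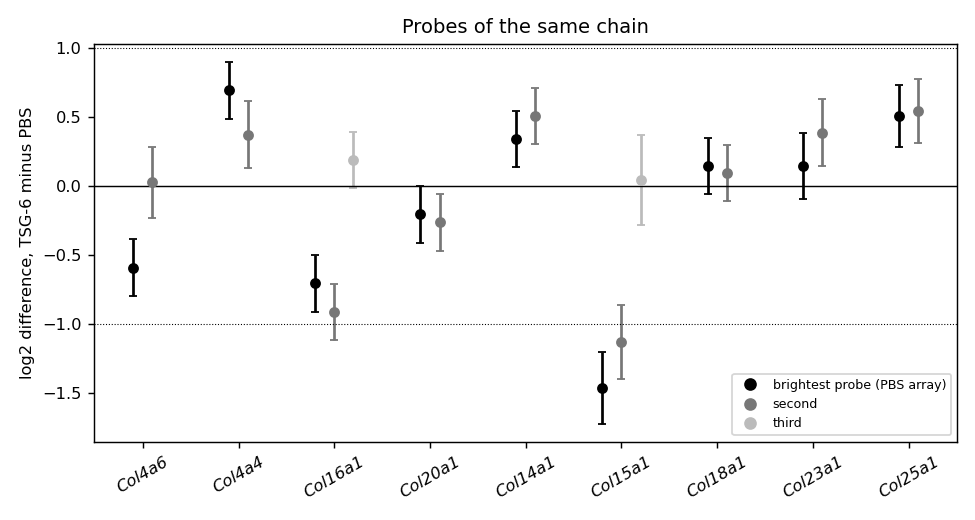
Difference between the TSG-6 and PBS pools (log2) for each measured probe of the 9 chains that had several, with the spot error as bars; darker points are brighter on the PBS array. In 6 of 9 chains the probes lie on the same side of 0, and in Col4a6, Col15a1 and Col16a1 the dimmest probe lies above 0 (0.03, 0.04 and 0.19) while the brightest lies below.

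Of the type VI chains, which form a filament network around cells, 4 were measured and 3 lay below 0. Col6a1 had levels of 1.49 and 1.07, a difference of -0.42 ± 0.20. Col6a2, its partner, had levels of -2.86 and -3.31, a difference of -0.45 ± 0.21. The pair were 0.03 apart, below the spot error of 0.29. Col6a5, a later-described chain that can replace Col6a3, had levels of -2.19 and -3.31 and was 2.18-fold lower (-1.12 ± 0.21). Its second probe was not well above background on either array, and its difference was -0.97 under normexp and -0.83 with the percentile of unflagged spots. Col6a4 differed by 0.07 ± 0.42, Col6a6 was not well above background on either array and Col6a3 had no matched probe.

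Col15a1 and Col18a1 encode the multiplexins, proteoglycan collagens of basement membrane zones. Col15a1 was the lowest of all chains, with levels of -4.50 in the PBS pool and -5.97 in the TSG-6 pool, a difference of -1.46 ± 0.26 or 2.76-fold lower. This chain is dim, and its value moved with the processing: -0.51 under normexp and -0.85 as the mean of its 3 probes, which gave -1.46, -1.13 and 0.04. Col18a1, the precursor of endostatin and a collagen that hepatocytes also make, had levels of 3.41 and 3.55, a difference of 0.15 ± 0.20, and its second probe gave 0.10. The 2 multiplexins were 1.61 ± 0.33 apart, and 0.62 under normexp.

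None of the remaining chains measured on both arrays was past 2-fold. Col7a1, the anchoring fibril chain of skin, differed by -0.13 ± 0.20. The 4 transmembrane chains were all above 0, from 0.01 to 0.51. All 4 were among the 11 dimmer chains, of which 9 were above 0, and 39.6% of genes in that range were below 0. Of the transmembrane chains, Col25a1 lay more than 2 spot errors above 0 (0.51 ± 0.22, its second probe 0.54). Col13a1, Col17a1 and Col23a1 gave 0.01, 0.39 and 0.15, each within 2 spot errors of 0 and each below 0 in at least 1 alternative. Col26a1 differed by -0.06 ± 0.45. Col28a1, a chain known from nerve, was well above background in the TSG-6 pool alone and was at least 2.28-fold higher, set against the lowest signal called above background on the PBS array.

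Between classes, the order of the fibrillar and type IV medians rested on which chains were counted. The fibrillar median of -0.28 lay below that of the type IV chains, 0.05, by 0.33 (-0.33), and below that of the FACITs, 0.19. The medians of the lattice-forming chains (-0.33, 3 chains) and of the type VI chains (-0.44, 4 chains) lay lower still. With flagged spots kept, so that Col4a2 and Col4a5 counted, the fibrillar median lay above the type IV median by 0.16. With the stricter filter on dim probes, which drops Col4a3, it lay above by 0.28. The fibrillar median lay below the FACIT median in each of these settings, at -0.28 and 0.19 with flagged spots kept and at -0.31 and -0.0060 with the stricter filter. The medians of the other classes were not recomputed under the alternatives. Each class held chains on both sides of 0 except the transmembrane chains (4 of 4 above 0, all among the dimmer chains) and the classes with 1 measured chain. Classes share both arrays and are not replicates of a condition.

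Chains whose genes neighbour each other in the RefSeq gene table did not always go together. Col6a1 and Col6a2 were alike (-0.42 and -0.45), and Col4a3 and Col4a4 were both higher (2.33 and 0.69). Col4a1 and Col4a2 lie on opposite strands with annotated starts 20 bases apart, and both were lower (-0.66, and -0.79 from flagged spots). Col3a1 and Col5a2, also neighbours, differed by -0.28 and -1.02. Col6a5 and Col6a4 gave -1.12 and 0.07.

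Genes that make, bind or break down collagen lay below 0 more often than not. Of 31 measured genes of collagen modification, folding, processing and cross-linking, 20 were below 0, 5 were lower by at least 2-fold and 1 was higher by as much, with a median of -0.40 against 0.08 over all genes. Over all measured genes 42.5% were below 0, 4.29% lower by 2-fold and 2.94% higher, and the same shares stand beside each list that follows. The list's median was -0.23 under normexp and -0.11 with the percentile of unflagged spots. The lowest was the cross-linking enzyme Lox, at -1.64, with a second probe at -0.43. Plod2, the hydroxylase of collagen telopeptide lysines, differed by -1.46 (-0.58 in its mildest alternative) and Fkbp10, a collagen chaperone, by -1.33. P4ha2, a prolyl hydroxylase subunit, differed by -1.09 and the procollagen peptidase Adamts14 by -1.07, the latter with a second probe at -0.00. In their mildest alternatives P4ha2 and Adamts14 gave -0.80 and -0.54. Colgalt2, a collagen galactosyltransferase, was dim (levels of -5.50 and -4.44) and 2.08-fold higher, a difference of 1.06 that was 0.64 in its lowest alternative.

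Of 9 measured collagen receptors, 7 were below 0, 2 were lower by at least 2-fold and none was higher by as much, with a median of -0.51 (-0.28 under normexp and -0.22 with the percentile of unflagged spots). They were the integrin subunit Itga2 (-1.35) and the collagen uptake receptor Mrc2 (-1.21, its second probe -0.14). In their mildest alternatives Itga2 and Mrc2 fell short of 2-fold, at -0.76 and -0.68. The receptor kinase Ddr1 differed by -0.71. Of 4 measured genes of collagen breakdown, 3 were below 0, with a median of -0.44. The collagenase Mmp13 had levels of 0.38 and -4.74 and a difference of -5.12, or 34.8-fold lower, which was -3.99 in its mildest alternative. The membrane collagenase Mmp14 differed by -0.50 and the protease Ctsk by -0.37. Chosen after their values were seen, the gelatinase Mmp9 differed by 0.22, and the flagged members differed, with flags ignored, by 1.63 for the neutrophil collagenase Mmp8 and by -0.52 for the gelatinase Mmp2. The list thus held members on both sides of 0.

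Among markers of the cells that can make collagen, those of activated stellate cells were the lowest list. The measured markers of endothelium and of quiescent stellate cells had medians above 0 when scaled to the 75th percentile. Of 9 markers of activated stellate cells, 9 were below 0, against 42.5% of all genes, and 5 lower by at least 2-fold, against 4.29%. Their median was -1.07, and it was -1.03 under normexp and -0.78 with the percentile of unflagged spots. Their summed signal was 27.0 times the array's 75th percentile in the PBS pool and 12.8 times in the TSG-6 pool. Acta2, the smooth muscle actin of myofibroblasts, differed by -2.47, Cthrc1 by -1.91, Lox by the -1.64 given before, the filament gene Des by -1.23 and Tagln by -1.07. Des and Tagln fell short of 2-fold in their mildest alternatives (-0.95 and -0.78). Acta2, Cthrc1 and Lox did not (-2.18, -1.17 and -1.04). Of 8 markers of portal fibroblasts and mesothelium, 8 were below 0 and none past 2-fold, with a median of -0.28 and a summed signal of 8.74 and 7.15; the median was 0.01 with the percentile of unflagged spots. Of 8 endothelial markers 2 were below 0, with a median of 0.25 and sums of 31.0 and 35.9. Of those above 0, all but Cdh5 fell below 0 with spike-in scaling, their lowest alternative (-0.23 to -0.03, and 0.06 for Cdh5). Quiescent stellate cell markers had a median of 0.17 over the 4 measured of 6 (sums of 14.8 and 18.1), with Hhip at 2.35 and Reln at -0.32. Of those above 0, only Hhip stayed above 0 in its lowest alternative (1.72). Chosen after their values were seen, the flagged members Lrat and Hand2 differed, with flags ignored, by -0.42 and -0.11. The 2 measured cholangiocyte markers of 5 gave -0.29 (Krt19) and -0.02 (Krt7), with sums of 1.36 and 1.19. Also chosen after their values were seen, the flagged members Sox9 and Epcam differed, with flags ignored, by -0.92 and 0.16. Cftr was not well above background on either array. Cartilage markers were dim, with 4 of 6 measured, a median of 0.26 and sums of 0.49 and 0.47. Hapln1 differed by -1.40 (-0.90 in its mildest alternative) and Matn1 was not well above background on either array. The part of any of these cells in the collagen values was not tested.

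**Figure D5:**
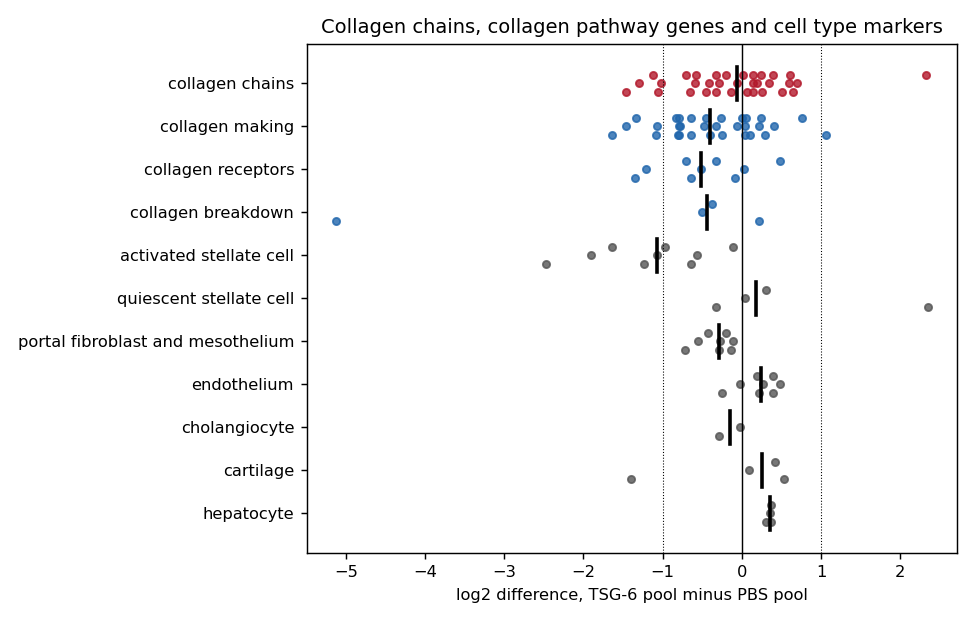
Log2 difference between the TSG-6 and PBS pools for each measured gene (points, spread vertically for view) of the collagen chains (red), 3 lists of collagen pathway genes (blue) and 7 lists of cell type markers (grey), with the list median as a black bar; dotted lines mark 2-fold. The activated stellate cell markers lie to the left of 0 with a median of -1.07. The hepatocyte markers lie to the right with a median of 0.36, and were below 0 with spike-in scaling. The collagen chains spread over both sides with a median of -0.06.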

How the data were processed

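The authors deposited 1 scanner file per array, whose processed signal is a linear intensity corrected for background and for spatial trend, per the file headers; these name Agilent Feature Extraction 11.5.1.1, the submitters' processing notes 10.7. The deposited value table is in log2: it matched the log2 scanner values less 1 constant per array within 0.001 for 100% of probes with 1 spot, so genes were not centred (column medians -3.90 and -3.77).

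Processed signals were divided by the 75th percentile of the 59305 non-control spots (3158 on the PBS array, 2476 on the TSG-6 array) and put in log2. Control spots and spots with an outlier flag were left out, replicate spots were averaged, and detection asked for 50% of a probe's spots well above background. For genes with several probes, the one detected on more arrays was taken, then the brighter. Accessions were matched to a RefSeq gene table of GRCm38.p6, for 26762 of 55681 probes; the array design is on mm9, so no gene coordinates are printed, and promoter windows carry the table's own. A chain seen on 1 array is given as a bound against the higher of its own dim value and the lowest detected signal.

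With 1 array per group no test exists; genes were counted past 2-fold. The members, classes and lists were chosen with earlier results of these data known. Every chain is named. Of the other lists, at most the 3 largest differences and those past 2-fold are named. Further members are marked in the text as flagged, not well above background or chosen after their values were seen. Steps were tested on simulated data. The 13 alternatives concern background correction (limma 3.58.1), scaling, filters, flags, probes, the value table and the size rule. Python 3.11.15 was used.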

Additional observations from a re-analysis of the deposited data

How the results depend on the processing

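No paired analysis was possible because each group is 1 array, and for the same reason no replicate could be left out. Of 98 summary values under the alternatives, 68 stayed within 1.5 times (counts) or within the replicate-spot SD of 0.13 (medians), and 30 moved; of 385 values of single chains 112 moved by more than that SD, and no chain past 2-fold changed sign. Part of the 385 could not move. The filters on dim probes leave the value of a chain as it is, and for most chains so do kept flags and the mean over probes. Likewise, rescaling by a constant cannot move the fibrillar median minus the type IV median. The share of values that moved is therefore not a measure of how stable the chains are. The cause of each shift was not tested beyond what a setting does by construction (a shift of every value, fewer chains). The count of chains at least 2-fold lower, 5, was 1 under normexp, 2 with the 75th percentile taken over unflagged spots, 9 with spike-in scaling and 8 at 1.5-fold. The count at least 2-fold higher, 1, was 2 with no filter, 0 with the stricter filter and 5 at 1.5-fold (background 10.3% lower and 10.5% higher). The chain median, -0.06, was 0.23 with the unflagged percentile, -0.20 under loess, -0.48 with spike-in scaling and -0.33 with the stricter filter. In that order of settings the FACIT median was 0.48, 0.038, -0.23 and -0.0060. The fibrillar median was 0.0072 with the unflagged percentile, -0.51 under quantile normalization, -0.49 under loess and -0.70 with spike-in scaling. The type IV median was 0.34 with the percentile of unflagged spots, -0.37 with spike-in scaling, -0.59 with the stricter filter and -0.44 with flags kept. The fibrillar median minus the type IV median was -0.52 under quantile normalization, 0.28 with the stricter filter and 0.16 with flags kept. Over the whole array, 1096 genes were past 2-fold, and 692 under normexp, 1765 with spike-in scaling, 1864 with no filter and 641 with the stricter filter. The share of these that were higher, 40.7%, was 29.5% with median scaling, 28.6% under loess, 73.0% with the percentile of unflagged spots and 9.75% with spike-in scaling. Dim chains have the largest spot errors, up to 0.45 for Col26a1.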
